A study of Mus musculus with 120 samples.

Results

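Collagens are the main structural proteins of the extracellular matrix. The genes described here are all those whose symbol is Col, a number, the letter a and a number in the count tables of both soleus muscle and heart, 44 of 53656 genes. Names alone chose them, with no measured value. By the kind of structure their proteins build, 11 are fibrillar collagens, 6 basement membrane collagens, 9 FACIT collagens (fibril-associated collagens with interrupted helices), 6 beaded filament collagens (type VI), 3 short chain network collagens (types VIII and X), 2 multiplexins (types XV and XVIII), 4 membrane collagens, 1 the anchoring fibril collagen (type VII) and 2 have none of these structures (types XXVI and XXVIII).

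Collagen chains wind around each other into a rigid helix before they leave the cell. Fibrillar collagens then form the fibres that carry load in tendon and in the connective tissue between muscle fibres, FACIT collagens sit on the surface of these fibrils, and type IV collagens build the sheet of basement membrane around each muscle fibre, heart muscle cell and capillary. In muscle and heart, fibroblasts make most of the fibrillar collagen, while endothelial and muscle cells also make basement membrane collagen.

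The study asks how mitochondrial mutations bear on endurance training. All mice were on the C57BL/6Eij (Nnt+/+) background. ANT1 mice (ANT1-/-) have no functional Slc25a4, the gene for the ADP/ATP carrier of heart and muscle mitochondria, and the labels name no tissue-specific driver for this deletion. ND5 mice (ND5S204F, position 12352 of mitochondrial DNA, mtDNA), ND6 mice (ND6P25L, position 13997) and CO1 mice (CO1V421A, position 6589) each carry a missense mutation in a respiratory chain subunit encoded by mtDNA. By the labels, mice of both treatments began at 16 weeks of age. Exercised mice trained over 8 weeks in sessions of 45 min on every 2nd day. The sessions were set to 50% of what the mice could maximally run, with dissection 6 days after training ended. Non-exercised mice were handled without training, and both kinds of mice had running tests. Each of the 16 groups (4 strains, 2 treatments, 2 tissues) had 6 libraries, each from a separate mouse by its code, so p-values measure the spread between mice. The unmutated control strain was not analysed here, so every strain difference is one between mutants.

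Library totals ranged from 10.2 to 20.7 M counts (M, mega) in soleus and from 19.7 to 26.5 M in heart. Soleus libraries held the slow muscle genes Myh7 at 1360 to 4370 FPKM (fragments per kilobase and per M fragments) and Tnnt1 at 1580 to 4560 FPKM, against 1.04 to 214 and 5.15 to 20.2 FPKM in heart, while the heart gene Tnni3 stood at 0 to 2.31 FPKM in soleus and at 736 to 6850 FPKM in heart. Slc25a4 stood at 2.66 to 10.6 FPKM in ANT1 soleus libraries, against 1860 to 2660 FPKM in the others, and at 1.1 to 2.97 FPKM in ANT1 hearts, against 420 to 2580 FPKM in the others. The heart library of ND5 mouse B80, labelled non-exercised, stood apart. It held the lowest mtDNA share of the hearts (9.23% of counts) and the highest collagen share (0.496%), its summed smooth muscle markers reached 9260 CPM (counts per M counts, scaled by TMM), and its cardiomyocyte markers only 4630 CPM. Its soleus library is labelled exercised, which conflicts with the heart label, so calls that rest on it are given with and without it.

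Collagens took 0.0224% to 0.605% of the counts of a soleus library (median 0.0791%) and 0.0505% to 0.496% of those of a heart library (median 0.088%). In soleus the interstitial fibrillar genes led. Col3a1, the type III chain of interstitial fibrils, averaged 93.9 FPKM ± 109 (SD, n = 48; median 52.4), Col1a2, a chain of type I collagen, 40.9 ± 45.3 FPKM, and Col1a1, its partner chain, 23.6 ± 32.0 FPKM. In heart Col4a1, a chain of the common type IV collagen, stood highest by its mean at 32.0 ± 9.87 FPKM (median 30.5), near Col3a1 at 30.4 ± 33.8 FPKM (median 23.6), and its partner Col4a2 followed at 26.6 ± 6.91 FPKM. In heart the gaps between these neighbours were smaller than the SD of each. In soleus the gap between Col3a1 and Col1a2 exceeded the SD of Col1a2 but was smaller than that of Col3a1. Col1a1, Col1a2 and Col3a1 together gave a median of 46.4% of the collagen counts of a library in soleus and 22.4% in heart, while Col4a1 and Col4a2 together gave 15.2% in soleus and 38.8% in heart. By these shares, fibrillar chains led in soleus and type IV chains in heart.

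**Figure D1:**
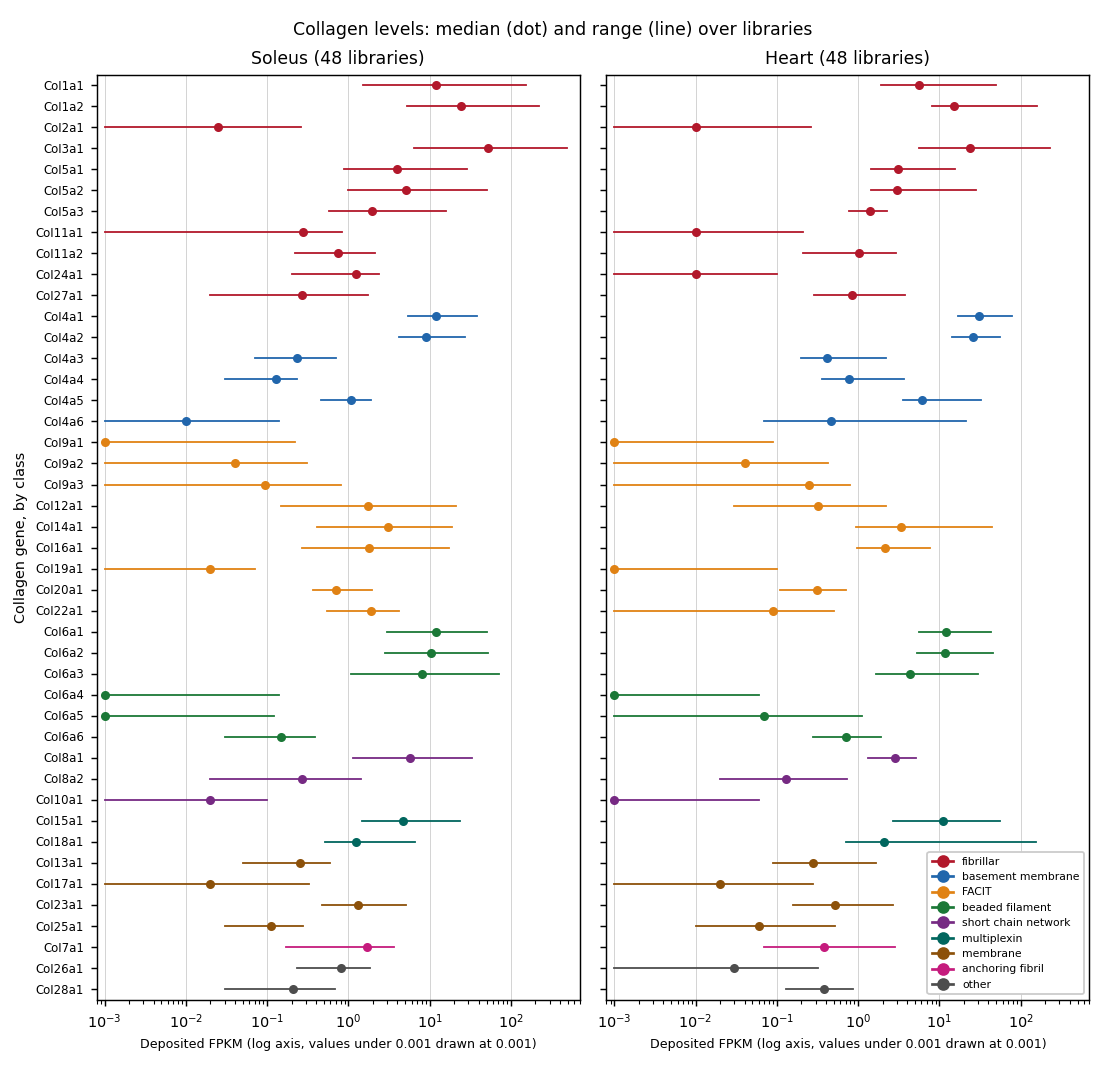
Deposited FPKM of the 44 collagen genes on a log axis, grouped by class, with soleus at the left and heart at the right; dots are the median and lines the range of the 48 libraries of a tissue, and values under 0.001 are drawn at 0.001. Col3a1 leads in soleus with a median of 52.4 FPKM, while Col4a1 has the highest median in heart, 30.5 FPKM.

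The lower ranks held all other classes. In soleus Col6a1 and Col6a2, chains of the type VI microfibrils that tie cells to the matrix, averaged 13.8 ± 10.2 and 13.3 FPKM, Col4a1 12.96 ± 6.26 FPKM and Col4a2 10.1 ± 4.71 FPKM. Col8a1, a type VIII chain of hexagonal networks known from vessels, averaged 6.94 ± 6.48 FPKM, the multiplexin Col15a1, which lies at the outer face of basement membranes, 5.69 ± 4.16 FPKM, and the FACIT genes Col14a1 and Col12a1 4.04 ± 3.62 and 3.19 ± 4.23 FPKM. In heart Col15a1 averaged 11.9 ± 7.81 FPKM and Col18a1, the multiplexin that releases endostatin, 7.14 ± 21.9 FPKM, with a median of 2.06 FPKM and a highest library, B80, at 153 FPKM. Genes under low counts were not tested. Of the 44 genes, 34 passed that filter in soleus, 34 in heart and 36 over both tissues, and a gene that is high in 1 group alone can pass through that group. Col2a1, Col9a1, Col9a2, Col19a1, Col6a4, Col10a1 and Col17a1, several of them known from cartilage or skin, passed in neither tissue. Col11a1, Col24a1 and Col26a1 passed in soleus but not in heart, and Col4a6, Col6a5 and Col9a3 in heart but not in soleus.

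Some pairs of chains kept narrow ratios and others did not. The ratio of Col4a1 to Col4a2 FPKM had a median of 1.28 in soleus (lowest 1.02, highest 1.5) and of 1.19 in heart (1.03 to 1.47), and that of Col6a1 to Col6a2 a median of 1.06 in soleus (0.901 to 1.32) and 1.02 in heart (0.88 to 1.32). Other pairs varied more in soleus. The ratio of Col1a1 to Col1a2, partners in type I collagen, ran from 0.263 to 0.731 (median 0.471), that of Col3a1 to Col1a2 from 1.03 to 2.95 (median 2.12) and that of Col5a1 to Col5a2, partners in type V collagen, from 0.495 to 1.25 (median 0.685). The ratio of Col6a3 to Col6a1 ran from 0.29 to 1.55 (median 0.728), and that of the low genes Col4a4 and Col4a3 from 0.143 to 2.09 (median 0.56). Several of these genes are neighbours on the genome (GRCm38, mm10). Col4a1 (chromosome 8, 11198423 to 11312826, minus strand) and Col4a2 (chromosome 8, 11312805 to 11449287, plus strand) stand head to head and overlap by 22 bases as annotated, and since the labels do not say that strand was kept, reads in those bases cannot be told apart. Col4a4 and Col4a3 on chromosome 1 lie head to head 71 bases apart, Col4a6 and Col4a5 on chromosome X 1308 bases apart, and Col3a1 (chromosome 1, 45311538 to 45349706, plus strand) lies 24614 bases from Col5a2. Col1a1 (chromosome 11, 94936224 to 94953042, plus strand) and Col1a2 (chromosome 6, 4504814 to 4541544, plus strand) lie on different chromosomes. Slc25a4, the gene deleted in ANT1 mice, is also on chromosome 8, 34.9 Mb from Col4a1 and 34.8 Mb from Col4a2.

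Start regions are shown for Col4a1 and Col4a2, which share theirs and kept a narrow ratio, and for Col1a2 and Col3a1, the leading fibrillar genes. The windows run from 250 bases before to 50 after the RefSeq start (GRCm38.p6), 5′ to 3′ on the gene's strand, at chr8:11312777-11313076 (minus strand) for Col4a1, chr8:11312555-11312854 (plus) for Col4a2, chr6:4505368-4505667 (plus) for Col1a2 and chr1:45311288-45311587 (plus) for Col3a1. The first pair of windows shares 78 bases on opposite strands. Capitals mark 3 motifs on either strand: the CCAAT box searched as CCAAT, the TATA box as TATAAA and the GC box as GGGCGG.
Col4a1: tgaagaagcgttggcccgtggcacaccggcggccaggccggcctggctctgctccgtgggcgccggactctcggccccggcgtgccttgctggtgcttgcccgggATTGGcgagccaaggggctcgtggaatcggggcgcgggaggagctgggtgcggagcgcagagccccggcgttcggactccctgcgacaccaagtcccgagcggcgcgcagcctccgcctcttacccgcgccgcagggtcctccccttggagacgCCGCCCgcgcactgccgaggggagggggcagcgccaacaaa
Col4a2: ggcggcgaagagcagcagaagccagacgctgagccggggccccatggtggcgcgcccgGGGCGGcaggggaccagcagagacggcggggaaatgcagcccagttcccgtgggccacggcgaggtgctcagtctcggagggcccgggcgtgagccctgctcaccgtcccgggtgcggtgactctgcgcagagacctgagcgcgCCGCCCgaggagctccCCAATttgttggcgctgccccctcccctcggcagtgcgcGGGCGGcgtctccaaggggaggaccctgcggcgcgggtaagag
Col1a2: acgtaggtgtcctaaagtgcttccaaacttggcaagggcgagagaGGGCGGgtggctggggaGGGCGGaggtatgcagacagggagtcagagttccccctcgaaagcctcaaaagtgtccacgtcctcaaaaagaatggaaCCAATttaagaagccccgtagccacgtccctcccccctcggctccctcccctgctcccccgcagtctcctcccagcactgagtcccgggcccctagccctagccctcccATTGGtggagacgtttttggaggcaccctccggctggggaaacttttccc
Col3a1: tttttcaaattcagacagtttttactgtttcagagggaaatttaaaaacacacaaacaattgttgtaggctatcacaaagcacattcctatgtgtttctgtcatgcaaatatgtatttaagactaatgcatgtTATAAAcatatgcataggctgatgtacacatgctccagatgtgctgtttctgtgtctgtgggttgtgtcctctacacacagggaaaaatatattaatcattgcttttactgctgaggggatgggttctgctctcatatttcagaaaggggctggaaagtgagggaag
Counted from the start, Col1a2 held CCAAT at -109 and GGGCGG at -205 and -188, with a further CCAAT on the other strand at 1. Col4a2 held CCAAT at -32 and GGGCGG at -192, at 8 and, on the other strand, at -48, while Col4a1 held both motifs on the other strand, CCAAT at -145 and GGGCGG at 10. Col3a1 held TATAAA at -117 and neither other motif. RefSeq windows were matched for 35 of the 44 genes (38 windows of 300 bases). GGGCGG was in 60.5% of them, against 35.7% of all 32851 windows, CCAAT in 34.2%, against 37.4%, and TATAAA in 13.2%, against 13.6%. These matches are a description of letters, and binding was not measured.

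Soleus and heart were compared over the 4 strains in non-exercised mice. Of 16172 genes tested over both tissues, 80.4% were called at an adjusted p under 0.05 (37.7% higher and 42.7% lower in soleus), so most collagens stood to differ as well. Of 36 collagens, 19 were higher in soleus and 13 lower, and their median log2 difference (soleus over heart) was 0.43, against -0.06 over all genes. Among fibrillar collagens 8 of 10 were higher in soleus and 2 lower. All 6 basement membrane collagens were lower in soleus. These counts hold genes that passed the filter only through the tissue where they are high. They are Col11a1 and Col24a1 among the fibrillar genes called higher and Col4a6 among the basement membrane genes. The totals of 19 and 13 also hold Col26a1 and Col6a5, which passed in the same way. Of the FACIT collagens 3 of 5 were higher, of the short chain network collagens 2 of 2, of the membrane collagens 2 of 3, and both multiplexins were lower. Each difference between the tissues is also one between tables and depths, and these cannot be told apart.

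Of these 36 genes, Col11a1, Col24a1 and Col26a1 passed the filter on low counts only through soleus and Col4a6 and Col6a5 only through heart, so that they had to differ, and their calls support nothing. Col24a1, a fibrillar chain known from bone and developing cornea, stood at a median of 1.23 FPKM in soleus (0.2 to 2.4), against 0.01 in heart (0 to 0.1). Col4a6, a minor type IV chain, ran the other way, at 0, 0.108 and 0.520 CPM in non-exercised soleus (lowest, median and highest), against 0.660, 1.96 and 89.6 CPM in non-exercised heart. The tissues did not overlap for either gene, which the filter favoured and which supports nothing. Among genes that passed in both tissues, Col22a1, a FACIT collagen of the junction between muscle and tendon, was 35.8-fold higher in soleus (log2 5.16 ± 0.166 SE, edgeR quasi-likelihood adjusted p = 7.42e-46), at a median of 1.90 FPKM (0.54 to 4.21), against 0.09 in heart (0 to 0.5). Over the 48 libraries of each tissue, exercised ones included, the tissues did not overlap for this gene. Here and below, the share of all genes without overlap between groups was not counted. Among abundant genes, Col3a1 had a log2 difference of 1.64 ± 0.233 (3.12-fold, adjusted p = 1.20e-09), Col12a1, a FACIT collagen of tendon and fascia, 2.37 ± 0.264 (adjusted p = 1.96e-13), and Col8a1 1.12 ± 0.150 (adjusted p = 1.98e-10). Col7a1, the anchoring fibril chain, was also higher in soleus by 2.16 ± 0.156 (adjusted p = 1.96e-22).

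Type IV chains ran the other way. Col4a5, which pairs with other minor type IV chains in specialised basement membranes, stood at a median of 1.08 FPKM in soleus (0.46 to 1.91), against 6.02 FPKM in heart (3.53 to 32.6). Its soleus libraries all lay below the heart libraries, with a log2 difference of -2.78 ± 0.104 (adjusted p = 6.48e-41). Col4a1 was 2.28-fold lower in soleus (log2 -1.19 ± 0.0979, adjusted p = 2.20e-19), Col4a2 lower by a log2 of -1.29 ± 0.0969, and Col4a4 by -2.503 ± 0.148. The multiplexin Col15a1 was lower by -1.01 ± 0.129 (adjusted p = 3.05e-11). Among type VI chains, Col6a3 was higher in soleus (0.87 ± 0.174) and Col6a6 lower (-2.12 ± 0.164), and Col6a2, Col14a1, Col16a1 and Col13a1 were not called.

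In the soleus of non-exercised mice, most collagens were lower in ANT1 mice than in the mean of the ND5, ND6 and CO1 mice, and the fibrillar chains were several-fold lower. Of 34 collagens tested, 27 were lower and 2 higher in ANT1, where 47.7% of the 13935 genes tested were called (25.4% lower, 22.4% higher). The median log2 difference (ANT1 over the mean of the 3 other strains) was -0.96 over the collagens and -0.04 over all genes. Lower were 9 of 10 fibrillar collagens (median -1.5), 4 of 5 FACIT collagens (-1.93), 3 of 4 beaded filament collagens (-1.13), both short chain network collagens (-1.84) and both multiplexins (-0.84), while basement membrane collagens were divided, with 3 lower and 2 higher of 5 (-0.42). Collagens together took 0.0246%, 0.0309% and 0.0412% of counts in ANT1 (lowest, median and highest of 6), against 0.111%, 0.302% and 0.605% in ND5. The ND6 libraries held 0.0527%, 0.0825% and 0.112%, and the CO1 libraries 0.0584%, 0.0945% and 0.246%. By this share of all counts the ANT1 libraries lay below those of each other strain. As a share of the counts outside mtDNA, collagens took 0.0395%, 0.0485% and 0.0785% in ANT1, against 0.137%, 0.359% and 0.694% in ND5 mice, 0.0651%, 0.104% and 0.141% in ND6 mice and 0.0717%, 0.118% and 0.299% in CO1 mice, so that the ANT1 range overlapped the low end of ND6 and CO1.

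Among fibrillar genes, Col3a1 stood at 38.7, 71.3 and 122 CPM in the 6 ANT1 libraries (lowest, median and highest), against 54.9, 267 and 1304 CPM in the 18 libraries of the other strains. The ANT1 libraries fell in the low end of the others' range, and the difference was 4.47-fold lower (log2 -2.16 ± 0.466 SE, adjusted p = 1.76e-04). Col1a2 stood at 37.5, 54.0 and 100.3 CPM in ANT1, against 68.5, 162 and 822 CPM (-1.84 ± 0.405, adjusted p = 2.20e-04). Col1a1 had the smallest p of the class, at 15.4, 21.5 and 33.1 CPM in ANT1, against 28.9, 81.97 and 644 CPM (adjusted p = 5.80e-05). Groups overlapped for all of these genes, by a few libraries at the bottom of the other strains. Col5a1, a chain of type V collagen that sets the width of type I fibrils, was 3.52-fold lower (-1.82 ± 0.384, adjusted p = 1.33e-04), at 9.98, 11.5 and 21.8 CPM in ANT1, against 13.1, 37.9 and 173 CPM. Col11a2 alone of the fibrillar collagens tested was not called, at a log2 difference of 0.41 (adjusted p = 0.109).

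The FACIT gene Col12a1 stood at 1.54, 1.91 and 4.36 CPM in ANT1, against 3.08, 9.18 and 66.5 CPM in the other strains, 5.94-fold lower (-2.57 ± 0.54, adjusted p = 1.22e-04). Col14a1, a FACIT collagen of tendon and fascia, stood at 2.28, 4.34 and 6.96 CPM in ANT1, against 3.91, 14.7 and 57.6 CPM (-1.93 ± 0.388, adjusted p = 6.55e-05), and Col16a1 was 4-fold lower (-1.998 ± 0.415, adjusted p = 1.05e-04). Col22a1, the chain of the muscle-tendon junction, was lower by less (-0.50 ± 0.151, adjusted p = 0.00566). The network gene Col8a1 stood at 7.71, 9.42 and 14.3 CPM in ANT1, against 12.5, 30.8 and 119 CPM (-1.81 ± 0.324, adjusted p = 1.13e-05). Its partner Col8a2 was the only collagen whose groups did not overlap, at 0.278, 0.436 and 0.582 CPM in ANT1, against 0.690, 1.42 and 4.28 CPM (-1.87 ± 0.482, adjusted p = 0.00142). Overlap was not counted over all genes. Col8a1 and Col8a2 were lower by similar folds, 3.49 and 3.65.

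Among beaded filament genes, Col6a1 stood at 16.0, 23.8 and 43.8 CPM in ANT1, against 27.6, 51.96 and 143 CPM (-1.12 ± 0.271, adjusted p = 7.26e-04), and Col6a2 was lower by a log2 of -1.14 ± 0.289 (adjusted p = 0.00118). Col6a6, a further chain of this class, was not called (0.38 ± 0.278, adjusted p = 0.266). Of the multiplexins, Col15a1 was 1.69-fold lower (-0.75 ± 0.223, adjusted p = 0.00502) and Col18a1 1.9-fold lower (-0.92 ± 0.247, adjusted p = 0.002). Col7a1 stood at 2.23, 2.99 and 3.43 CPM in ANT1, against 3.17, 5.65 and 8.36 CPM, so that only the bottom of the other strains reached the ANT1 range (-0.999 ± 0.186, adjusted p = 2.08e-05). The membrane collagen Col23a1 was lower (-0.60 ± 0.215, adjusted p = 0.0196), and Col13a1 and Col25a1 were not called. Col26a1 and Col28a1 were lower by -0.78 ± 0.309 (adjusted p = 0.0339) and -0.71 ± 0.285 (adjusted p = 0.0359).

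The abundant basement membrane genes differed by less than the fibrillar ones. Col4a1 stood at 49.9, 62.5 and 77.5 CPM in ANT1, against 55.1, 77.5 and 175 CPM, 1.34-fold lower (-0.42 ± 0.161, adjusted p = 0.0272), and Col4a2 was 1.37-fold lower (-0.46 ± 0.155, adjusted p = 0.0132). Col4a5 had the smallest p of all collagens, at 2.26, 3.21 and 3.80 CPM in ANT1, against 3.57, 5.61 and 7.44 CPM (-0.82 ± 0.132, adjusted p = 1.50e-06). Col4a3 and Col4a4, chains that join Col4a5 in specialised basement membranes such as that of the kidney glomerulus, were called in the opposite direction. Col4a3 stood at 1.75, 2.27 and 3.32 CPM in ANT1, against 0.607, 1.62 and 2.55 CPM (0.57 ± 0.238, adjusted p = 0.0444), and Col4a4 at 1.13, 1.52 and 2.91 CPM, against 0.405, 1.30 and 1.97 CPM (0.62 ± 0.236, adjusted p = 0.0278). The calls of Col4a1, Col4a3 and Col4a4 each rested on single libraries. That of Col4a1 was lost without ANT1 replicate 2, 4 or 6, that of Col4a4 without ANT1 replicate 3, 4 or 5, and that of Col4a3 without any of 13 of the 24 libraries.

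**Figure D2:**
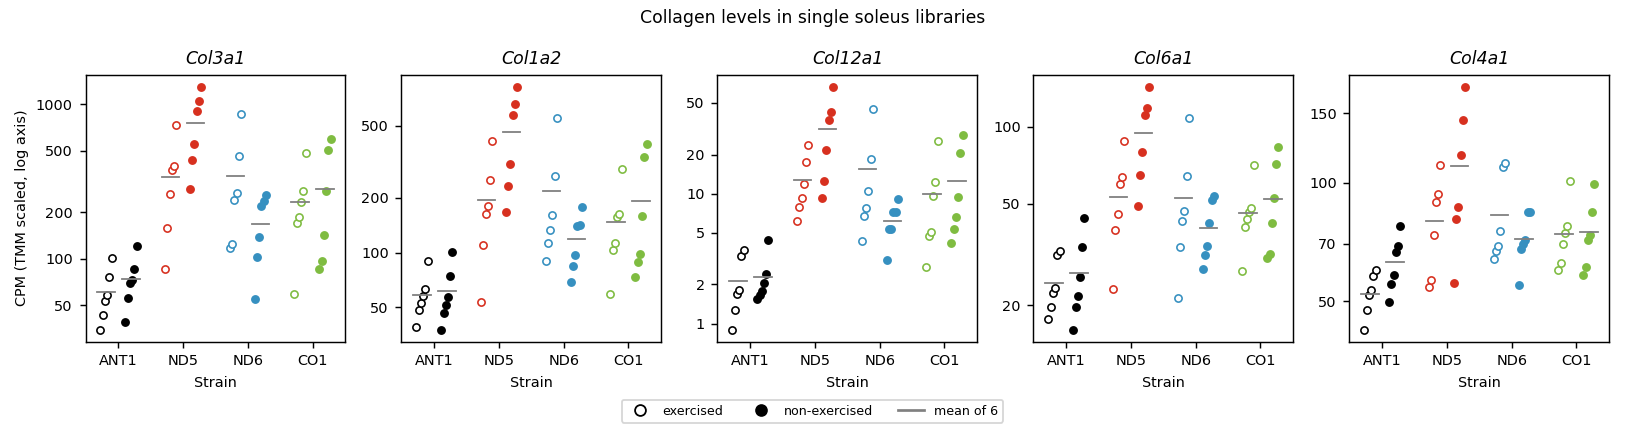
Levels of Col3a1, Col1a2, Col12a1, Col6a1 and Col4a1 in single soleus libraries, in CPM on a log axis, for the ANT1, ND5, ND6 and CO1 strains; open circles are exercised and filled circles non-exercised mice, and grey bars are means of 6. The ANT1 libraries sit low in the fibrillar and FACIT panels (Col3a1 at 34.7 to 122 CPM), non-exercised ND5 libraries sit high, and Col4a1 spans a narrower range.

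The size of these differences depended on the strain that ANT1 was set against, in comparisons added after the data were seen, which share the ANT1 libraries. Against ND5 alone, 25 collagens were lower and 2 higher of 34 (median -1.27; 49% of all genes called). Against CO1 alone 17 were lower and 1 higher (median -0.76; 35.2% called), and against ND6 alone 8 were lower and none higher (median -0.56; 30.8% called). Col4a5 was called against each strain, at log2 differences of -0.86 (ND5), -0.88 (ND6) and -0.73 (CO1), and Col8a1 against ND6 at -1.15 ± 0.365 (adjusted p = 0.0128), while Col1a1 (-1.30 ± 0.541, adjusted p = 0.0611), Col1a2 (-0.95 ± 0.446, adjusted p = 0.101) and Col3a1 (-1.19 ± 0.505, adjusted p = 0.0682) were not called against ND6. In exercised mice, the counts of lower collagens were 22, 23 and 19 of 34 against ND5, ND6 and CO1 (39.1%, 33.8% and 30.9% of all genes called).

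Of the genes that make, cut and bind collagen, most were lower in ANT1 soleus as well, where 25.4% of all genes were lower and 22.4% higher. Of 27 tested genes for the folding, secretion, processing and cross-linking of collagen, 22 were lower and none higher (median log2 difference -0.76). These included Lox and Loxl2, which cross-link collagen (-1.81 ± 0.457, adjusted p = 0.00111, and -1.82 ± 0.32, adjusted p = 8.11e-06), P3h2, a prolyl hydroxylase that modifies type IV collagen (-1.51 ± 0.188, adjusted p = 5.93e-09), and Serpinh1, a collagen chaperone (-0.76 ± 0.221, adjusted p = 0.00406). Of 8 genes of breakdown and uptake, 7 were lower, among them the collagenase Mmp14 (-1.65) and the inhibitor Timp2 (-1.05), and the inhibitor Timp3 was higher (0.43 ± 0.147, adjusted p = 0.0156). Of 8 collagen receptors 6 were lower, such as Ddr1 (-0.82 ± 0.124, adjusted p = 4.86e-07), and the integrin chain Itga1 was higher (0.27 ± 0.112, adjusted p = 0.0465). Of 12 regulators 10 were lower, among them Scx, a tendon transcription factor (-2.37 ± 0.265, adjusted p = 3.79e-10), Tgfbr1, a TGF-beta receptor (-0.70 ± 0.0783, adjusted p = 4.47e-10), and Ctgf (-1.49 ± 0.259, adjusted p = 6.71e-06).

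Markers of several other cell types moved with these differences, in both directions. In these bulk samples, fewer cells of a type and less RNA per cell cannot be told apart. The summed level of 10 tendon markers was 45.8, 55.5 and 96.2 CPM in ANT1 (lowest, median and highest), against 138, 309 and 589 CPM in ND5. For ND6 mice the sum was 68.6, 128 and 162 CPM, and for CO1 mice 99.4, 133 and 287 CPM. Of these 10 markers 8 were lower in ANT1 and none stood at 0. Markers of fibroblasts summed to 431, 530 and 913 CPM in ANT1, against medians of 787, 828 and 911 CPM in ND5, ND6 and CO1. Markers of regenerating muscle summed to a median of 46.3 CPM in ANT1 (27.7 to 68.5), against 633 CPM in ND5 (60.8 to 2280), with lower medians of 66.8 CPM for ND6 and 99.4 CPM for CO1, and 3 of 4 markers of fast fibres were lower in ANT1. Macrophage markers summed to a median of 27.1 CPM in ANT1 (14.4 to 43.6), against medians of 84.2, 40.1 and 39.5 CPM in the ND5, ND6 and CO1 mice, with 5 of 6 markers lower. Endothelial markers ran the other way, at a median of 222 CPM in ANT1 (192 to 343), against medians of 178, 204 and 195 CPM in ND5, ND6 and CO1 mice, with 3 of 6 higher. Schwann cell markers also did, at 39.6 CPM in ANT1 (29.8 to 45.4), against 19.4, 25.9 and 23.2 CPM in ND5, ND6 and CO1 mice, with 1 of 5 higher. With the tendon markers as a covariate 11 collagens were called (10 lower, 1 higher), and with the regenerating muscle markers 19. The share of all genes called with these covariates is not given. The part of the markers in the differences was not tested further. mtDNA transcripts took 35.8% to 47.6% of the counts of these ANT1 libraries, against 12.9% to 23% in the other strains, and 30 collagens were called with the genes of mtDNA left out.

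In exercised mice, collagens of the ANT1 soleus were again lower than the mean of the other strains. Of 34 collagens, 23 were lower and 2 higher, where 43.5% of genes were called (22.4% lower, 21.1% higher), and the median log2 difference was -0.90, against -0.02 over all genes. Lower were 8 of 10 fibrillar, 3 of 5 basement membrane, 4 of 5 FACIT, 3 of 4 beaded filament and both short chain network collagens, and neither multiplexin was called. Col3a1 stood at 34.7, 55.9 and 101 CPM in ANT1, against 59.1, 252 and 864 CPM in the other strains (-2.30 ± 0.471, adjusted p = 9.54e-05). Col5a2, a type V chain, was 4.28-fold lower (-2.10 ± 0.435, adjusted p = 1.13e-04), and Col5a3, a further type V chain, was the only collagen with no overlap between groups, at 4.503, 5.93 and 8.30 CPM in ANT1, against 9.32, 12.6 and 33.1 CPM (-1.29 ± 0.291). For the other collagens called lower, the ANT1 libraries reached into the low end of the other strains, and overlap was not counted over all genes.

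Col7a1 had the smallest p among exercised mice, at 1.44, 2.57 and 3.05 CPM in ANT1, against 2.46, 5.41 and 7.34 CPM (-1.18 ± 0.19, adjusted p = 1.90e-06). Of the network and microfibril genes, Col8a1 was lower by -1.69 ± 0.322 (adjusted p = 3.38e-05) and Col6a2 by -1.19 (adjusted p = 9.20e-04). Col12a1 was 5.7-fold lower (-2.51 ± 0.533, adjusted p = 1.57e-04). Col4a1 and Col4a2 were lower by -0.60 ± 0.163 (adjusted p = 0.00262) and -0.69 ± 0.157 (adjusted p = 3.96e-04), whereas Col4a3 and Col4a4 were not called (0.43 and 0.30). The higher calls were Col11a2, a type XI chain (0.52 ± 0.21, adjusted p = 0.0417), and the FACIT gene Col20a1 (0.50 ± 0.161, adjusted p = 0.0112). The call of Col11a2 was lost when any of 11 single libraries was left out, B80 among them, and that of Col20a1 without ANT1 replicate 4 or 6. Tendon markers summed to a median of 57.3 CPM in ANT1 (49.8 to 91.2), against 192, 157 and 124 CPM in ND5, ND6 and CO1, and regenerating muscle markers to 31.1 CPM, against 105, 131 and 83.1 CPM.

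Among the strains with an mtDNA mutation, non-exercised ND5 mice had the highest collagen levels in soleus and differed in the test from ND6 mice. Of 34 collagens, 19 were higher and 1 lower in ND5, where 14.5% of genes were called (9.97% higher, 4.51% lower), and the median log2 difference (ND5 over ND6) was 0.86, against 0.00 over all genes. Higher were 7 of 10 fibrillar, 3 of 5 FACIT, 3 of 4 beaded filament, 1 of 2 short chain network, both multiplexins, 1 of 3 membrane and 2 of 5 basement membrane collagens. Col1a1 stood at 104, 333 and 644 CPM in ND5, against 28.9, 60.1 and 80.5 CPM in ND6, 6.21-fold higher (log2 2.63 ± 0.543, adjusted p = 0.00347). Col3a1 stood at 282, 733 and 1304 CPM in ND5, against 54.9, 179 and 260 CPM in ND6 (2.17 ± 0.513, adjusted p = 0.00583). For both genes every ND5 library lay above every ND6 library, as it did for Col5a1, Col5a2, Col12a1 and Col27a1. The share of all genes that separated these libraries was not counted, so this cannot be read as particular to collagens. Col5a3 had the smallest p of the class, at 11.1, 30.5 and 68.3 CPM in ND5, against 7.18, 9.74 and 14.3 CPM in ND6 (1.77 ± 0.312, adjusted p = 0.00191), with overlapping groups.

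Col12a1 stood at 9.29, 29.2 and 66.5 CPM in ND5, against 3.08, 6.25 and 9.08 CPM in ND6 (2.36 ± 0.51, adjusted p = 0.00384), and Col14a1 was 3.25-fold higher (adjusted p = 0.00502). Col6a3, the long chain of type VI collagen, stood at 39.1, 116 and 208 CPM in ND5, against 18.2, 29.1 and 40.6 CPM in ND6 (2.001 ± 0.417, adjusted p = 0.00347), and Col6a2 was 2.66-fold higher (adjusted p = 0.00523). The groups touched for Col6a3, where only the lowest ND5 library fell within the range of ND6. Col8a1 was 2.93-fold higher (adjusted p = 0.00418), Col18a1 2.23-fold (adjusted p = 0.00502), Col15a1 1.83-fold (adjusted p = 0.0168) and Col23a1, a membrane collagen, 1.79-fold (adjusted p = 0.0152). Col4a1 stood at 55.8, 102 and 175 CPM in ND5, against 55.1, 70.8 and 84.4 CPM in ND6 (0.61 ± 0.191, adjusted p = 0.0259), and Col4a2 differed alike (0.58 ± 0.182, adjusted p = 0.0276). Col4a4 was lower in ND5, at 0.405, 0.573 and 1.53 CPM, against 0.937, 1.45 and 1.97 CPM in ND6 (-0.92 ± 0.3, adjusted p = 0.033). The calls of Col4a1 and Col4a2 were lost without ND5 replicate 3, 5 or 6 or ND6 replicate 2, and that of Col4a4 without ND5 replicate 3, 4 or 5 or ND6 replicate 2, 4 or 5. Col4a5 (-0.02 ± 0.143, adjusted p = 0.942), Col7a1 (0.14, adjusted p = 0.659) and Col22a1 (-0.12, adjusted p = 0.67) were not called.

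Of the genes that handle collagen, 19 of 27 production genes, 6 of 8 breakdown genes, 3 of 8 receptors and 3 of 12 regulators were higher in ND5, where 9.97% of all genes were higher. Most receptors and regulators tested were not called higher. Lox was higher by a log2 of 2.48 ± 0.481 (adjusted p = 0.00292), Serpinh1 by 1.33 ± 0.256 (adjusted p = 0.0029) and Timp1, an inhibitor of collagenases, by 3.10 ± 0.654 (adjusted p = 0.00384), while Timp3 was lower (-0.58, adjusted p = 0.0288). All 4 markers of regenerating muscle were higher in ND5, and their sums overlapped (60.8, 633 and 2280 CPM in ND5, against 44.3, 66.8 and 169 CPM in ND6). Macrophage markers summed to a median of 84.2 CPM in ND5 (50.8 to 140), against 40.1 CPM in ND6 (13.4 to 50.2), with no overlap and 5 of 6 markers higher, whereas 2 of 10 tendon markers were higher. With the regenerating muscle markers as a covariate, a setting added after the data were seen, no collagen was called, and with the tendon markers 17 were. For fits with a covariate or with a library left out, the share of all genes called is not given. Their counts thus cannot be read as particular to collagens. ND5 and CO1 did not differ in the test in any of 34 collagens (0% of genes called, 21 collagens at an unadjusted p under 0.05, median 0.62), with DESeq2 calling 3. Here and below, counts at an unadjusted p are not calls, and the share of all genes at that threshold is not given beside them. Leaving out a single library gave 18 calls without ND5 replicate 2, 5 without ND5 replicate 4, 2 without ND5 replicate 1, 15 without CO1 replicate 4 and 7 without CO1 replicate 5. ND6 and CO1 did not differ in the test either (0% of genes called, 3 collagens at an unadjusted p under 0.05, none by DESeq2, median -0.15).

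**Figure D3:**
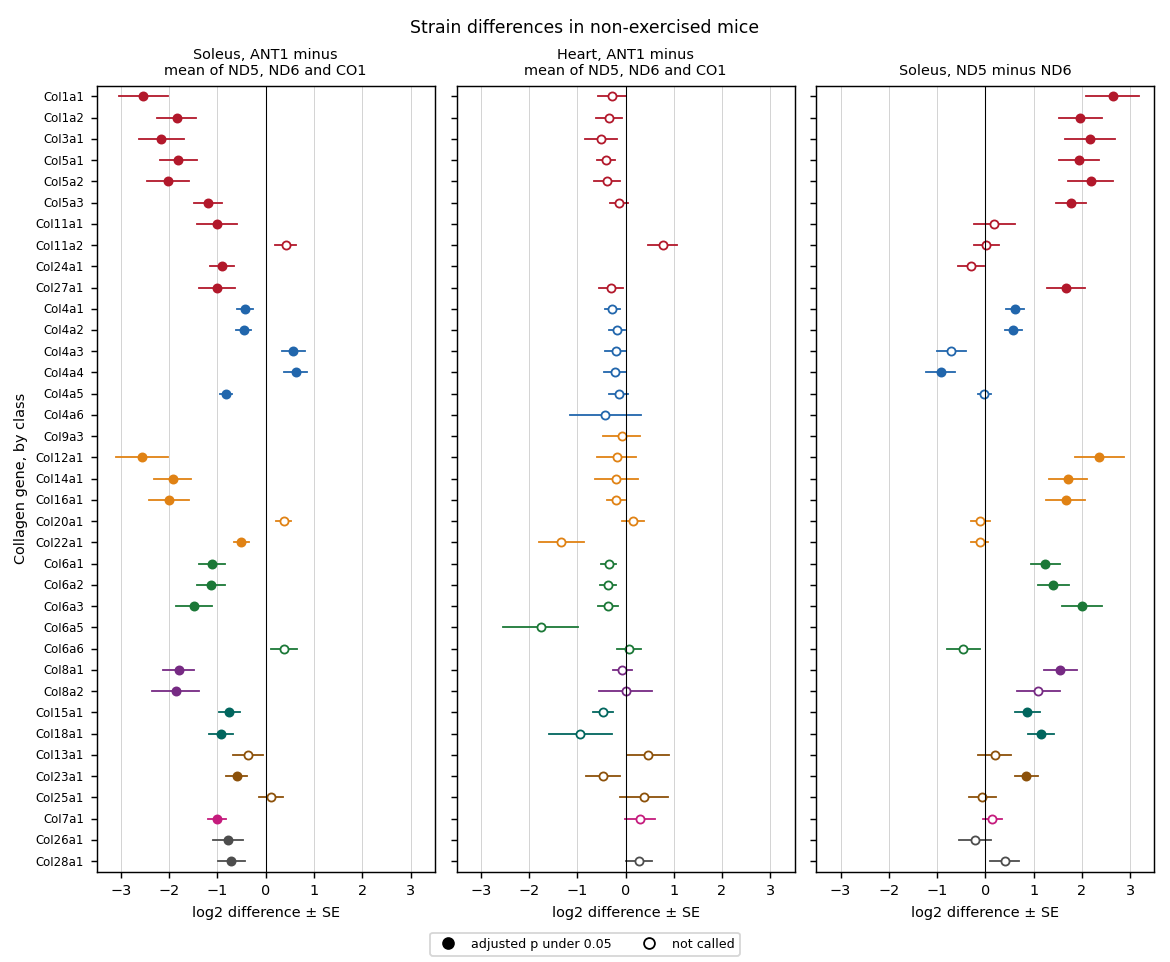
Log2 differences with their SE (edgeR) for each collagen tested, by class, in non-exercised mice: ANT1 minus the mean of ND5, ND6 and CO1 in soleus (left) and heart (middle), and ND5 minus ND6 in soleus (right); filled points had an adjusted p under 0.05. In soleus 27 points are called below 0 for ANT1 and 19 above 0 for ND5, and in heart none is called for ANT1.

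In heart, ANT1 mice did not differ in the test from the mean of the other strains in any of 34 collagens when non-exercised. There 0.916% of the 15723 genes tested were called, 7 collagens had an unadjusted p under 0.05, DESeq2 called none, and the median log2 difference was -0.21, against 0.01 over all genes. Col3a1 stood at 36.1, 58.3 and 118 CPM in ANT1, against 21, 83.7 and 537 CPM in the other strains (-0.51 ± 0.334, adjusted p = 0.583), Col1a1 differed by -0.28 ± 0.283 (adjusted p = 0.74) and Col4a1 by -0.27 ± 0.162 (adjusted p = 0.537). The ANT1 hearts lay inside the range of the others for the first of these. Of the related gene lists, none of 29 production, 10 breakdown, 9 receptor and 11 regulator genes was called. Against ND5 alone, 11 collagens were lower in ANT1 hearts (4.68% of genes called), and without B80 none was (0.538% called). Against ND6 or CO1 alone none was called (0.242% and 0.413% of genes).

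In exercised hearts 1 of 34 collagens was lower in ANT1, where 4.78% of genes were called (1.32% lower, 3.45% higher). Col22a1 stood at 0.0363, 0.108 and 0.437 CPM in ANT1, against 0, 0.587 and 1.02 CPM in the other strains (-1.95 ± 0.496, adjusted p = 0.0165). All of these levels are about 1 CPM or less, the groups overlapped, and the call was lost without ANT1 replicate 3 or 5.

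The difference between the tissues in the ANT1 effect was tested directly. Of 36 collagens, 12 had a difference lower in soleus than in heart and none higher, where 11.1% of genes were called (5.58% lower), and the median was -0.77, against -0.02 over all genes. These were 6 of 10 fibrillar, 3 of 5 FACIT, both short chain network collagens and Col7a1. Col1a1 had an interaction of -2.21 ± 0.53 (adjusted p = 0.00269), Col12a1 of -2.34 ± 0.63 (adjusted p = 0.00851), Col8a1 of -1.69 ± 0.354 (adjusted p = 5.39e-04), Col16a1 of -1.76 ± 0.419 (adjusted p = 0.00254) and Col7a1 of -1.26 ± 0.359 (adjusted p = 0.0137). None of 6 basement membrane collagens was called, with Col4a1 at -0.11 ± 0.224 (adjusted p = 0.816). With limma-voom as an alternative test, the calls of Col12a1, Col14a1, Col5a3 and Col8a2 were lost, with or without the mouse as a block. With no filter on low counts, those of Col14a1, Col3a1, Col5a3 and Col8a2 were lost. Without B80 the count was 15, and the 12 calls held. The share of all genes called without B80 is not given, so the rise cannot be read as particular to collagens.

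In non-exercised hearts, ND5 and CO1 mice differed in 19 of 34 collagens, all higher in ND5, but no collagen was called without mouse B80. With it, 11.2% of genes were called (9.27% higher, 1.92% lower), and the median log2 difference (ND5 over CO1) was 0.77, against 0.04 over all genes. Without it the median was 0.53. Higher were 5 of 8 fibrillar, 2 of 6 basement membrane, 3 of 6 FACIT and 4 of 5 beaded filament collagens, 1 of 2 short chain network collagens, both multiplexins, 1 of 3 membrane collagens and Col7a1. Col18a1 stood at 6.64, 11.8 and 511 CPM in ND5, against 4.72, 7.51 and 8.97 CPM in CO1 (3.81 ± 0.834, adjusted p = 0.0118), and Col4a6, known from smooth muscle basement membranes, at 0.995, 4.59 and 95.8 CPM, against 0.700, 1.12 and 2.19 CPM (4.02 ± 0.974, adjusted p = 0.0132). The highest value of each was that of B80.

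Other genes of that comparison were less uneven. Col3a1 stood at 55.4, 121 and 537 CPM in ND5, against 21, 41.3 and 87.4 CPM in CO1 (2.03 ± 0.412, adjusted p = 0.0113), and Col1a1 at 24.4, 41.5 and 197 CPM, against 11.3, 18.4 and 33.7 CPM (1.79 ± 0.35, adjusted p = 0.00961). Col6a3 stood at 21.5, 30.7 and 89.5 CPM in ND5, against 13.1, 18.01 and 20.3 CPM in CO1 (1.29 ± 0.26, adjusted p = 0.0113), and Col7a1 at 1.06, 1.52 and 3.59 CPM, against 0.454, 0.663 and 1.05 CPM (1.39 ± 0.391, adjusted p = 0.0222). For Col6a3 and Col7a1 the groups did not overlap, B80 or not, and overlap was not counted over all genes. The gap for Col7a1 was small, with the lowest ND5 library at 1.058 CPM and the highest CO1 library at 1.049 CPM. Col4a1 differed by 0.21 ± 0.195 (adjusted p = 0.459). Atrial markers summed to 132, 3290 and 15100 CPM in ND5 hearts, against 153, 229 and 826 CPM in CO1 hearts, and with these as a covariate 1 collagen was called. The share of all genes called with this covariate is not given. ND5 and ND6 hearts did not differ in the test (0% of genes called, 11 collagens at an unadjusted p under 0.05, median 0.43, and 0.10 without B80), nor did ND6 and CO1 hearts (0% called, 14 collagens at an unadjusted p under 0.05, median 0.50), and DESeq2 called none in either.

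**Figure D4:**
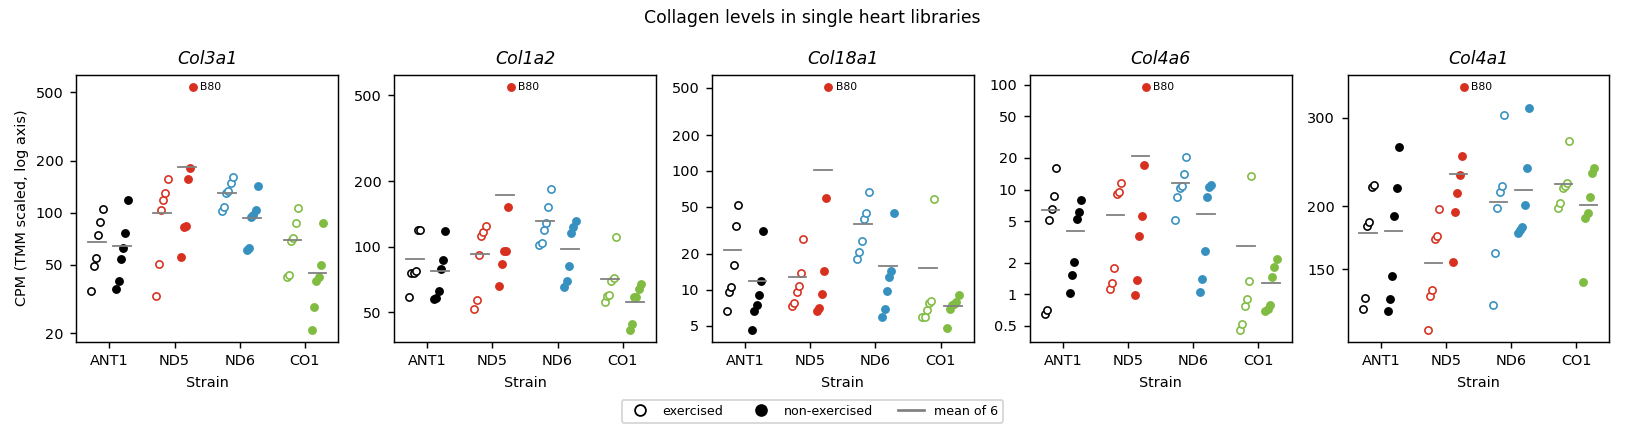
Levels of Col3a1, Col1a2, Col18a1, Col4a6 and Col4a1 in single heart libraries, in CPM on a log axis, for the ANT1, ND5, ND6 and CO1 strains; open circles are exercised and filled circles non-exercised mice, grey bars are means of 6, and mouse B80 is named. B80 is the highest library in each panel, at 511 CPM for Col18a1, and ANT1 hearts lie among the other strains.

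No collagen passed the edgeR test for training in any strain or tissue, nor did any other gene (0% of genes called in each comparison of exercised with non-exercised mice). DESeq2 called no collagen in these comparisons either, except 1 in ND5 soleus. In the soleus of ND5 mice 21 of 34 collagens had an unadjusted p under 0.05, and the median log2 difference (exercised over non-exercised) was -0.74, against 0.00 over all genes. As the share of all genes at that unadjusted threshold is not given, this count cannot be read as particular to collagens. Col18a1 stood at 3.68, 5.81 and 8.37 CPM in exercised ND5 mice, against 6.08, 11.7 and 21.4 CPM in non-exercised ones (-1.06 ± 0.266, edgeR adjusted p = 0.108). Col1a1 stood at 30.3, 114 and 284 CPM in exercised mice, against 104, 333 and 644 CPM (-1.50 ± 0.521, edgeR adjusted p = 0.171), and Col3a1 at 85.6, 320 and 734 CPM, against 282, 733 and 1304 CPM (-1.17 ± 0.498, edgeR adjusted p = 0.25). The groups overlapped for each. With edgeR, 3 collagens were called without exercised replicate 2 or without non-exercised replicate 2 and 1 without non-exercised replicate 4. Regenerating muscle markers were lower beside them by their medians, 105 CPM in exercised ND5 mice and 633 CPM in non-exercised ones.

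In the soleus of ND6 mice 9 collagens had an unadjusted p under 0.05 and the median was 0.29. The counts at an unadjusted p given from here on likewise have no share of all genes beside them. They cannot be read as particular to collagens. Col1a1 stood at 47.03, 79.5 and 388 CPM in exercised ND6 mice, against 28.9, 60.1 and 80.5 CPM in non-exercised ones (1.26 ± 0.523, edgeR adjusted p = 0.954), and Col12a1 differed by 1.32 ± 0.51 (edgeR adjusted p = 0.954). In ANT1 and CO1 soleus 0 collagens had an unadjusted p under 0.05, with medians of -0.10 and -0.09, and Col3a1 differed by -0.28 ± 0.504 in ANT1. On average over the 4 strains the median was -0.15, with 0 collagens at an unadjusted p under 0.05. A direct test of whether the training effect differed between strains called no gene in soleus (14 collagens at an unadjusted p under 0.05). In it Col1a1 had an edgeR adjusted p = 0.544 and Col5a3 one of 0.508.

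In heart, 0 collagens had an unadjusted p under 0.05 for ANT1 mice, 15 for ND5, 2 for ND6 and 1 for CO1, with median log2 differences of 0.07, -0.37, 0.28 and 0.27. The ND5 hearts include B80 among the non-exercised mice, and the count of 15 is not given without it. Leaving out 1 of the 12 ND5 hearts at a time moved the ND5 median between -0.492 and -0.157, with 0 collagens called throughout. Col18a1 stood at 7.35, 10.2 and 26.9 CPM in exercised ND5 hearts, against 6.64, 11.8 and 511 CPM in non-exercised ones (-2.99 ± 0.8, edgeR adjusted p = 0.366). The groups overlapped, and the highest non-exercised library, B80, stood far above the next one, B10, at 58.8 CPM. Among exercised soleus libraries, mice labelled as responders and as non-responders to training differed in 0 of 34 collagens (0% of genes called, none of the collagens by DESeq2). There 1 collagen, Col11a1, had an unadjusted p under 0.05 (-0.64 ± 0.298), and the median was -0.22, against 0.00 over all genes. Col3a1 stood at 57.2, 147 and 459 CPM in responders, against 34.2, 211 and 848 CPM in non-responders, with wide overlap.

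The collagens also varied between mice of the same group. To describe this, the log2 level of each gene was taken as a deviation from the mean of its group, and correlated with that of Col1a1 over the 48 libraries of a tissue (66 relations in all, 100000 permutations within groups). In soleus, 23 of 33 collagens had an adjusted p under 0.05, 11 had r over 0.8 and the median r was 0.635. Only collagens were correlated with Col1a1. The counts in soleus and heart thus have no share of all genes beside them and cannot be read as particular to collagens. Most alike were Col1a2 (r = 0.978, rho = 0.975), Col3a1 (r = 0.975, rho = 0.973) and Col5a1 (r = 0.963, rho = 0.955), each at permutation p = 1e-05, the smallest that the permutations can give (adjusted p = 2.4e-05 for r). Without the 2 libraries farthest from the median of Col1a1, r was 0.973, 0.972 and 0.958. Within the non-exercised ND5 mice alone, Col1a1 ranged from 104 to 644 CPM.

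The type VI chains Col6a2 (r = 0.935, rho = 0.934; 0.922 without 2 libraries), Col6a3 (r = 0.919, rho = 0.919; 0.9) and Col6a1 (r = 0.916, rho = 0.917; 0.9) followed Col1a1 nearly as closely in soleus, each at permutation p = 1e-05 (adjusted p = 2.4e-05 for r). Fibrillar chains differed among themselves, with r = 0.744 for Col5a3 (rho = 0.75), 0.588 for Col27a1 (rho = 0.595), 0.363 for Col11a1 (rho = 0.406), 0.289 for Col24a1 (rho = 0.161) and -0.0414 for Col11a2 (rho = -0.061), of which the last pair had adjusted p = 0.11 and 0.81. In soleus Col8a1 had r = 0.895 and rho = 0.9 (0.877 without 2 libraries), Col12a1 r = 0.889 and rho = 0.870 (0.863) and Col4a1 r = 0.635 and rho = 0.655 (0.590; permutation p = 3e-05, adjusted p = 6.8e-05). Col4a3 ran against Col1a1 (r = -0.431, rho = -0.443, permutation p = 0.0099, adjusted p = 0.015; -0.329 without 2 libraries). In heart, 22 of 33 collagens had an adjusted p under 0.05, 6 had r over 0.8 and the median was 0.529. The hearts include B80, and these counts and this median are not given without it. Without the 2 libraries farthest from the median of Col1a1, r fell from 0.605 to 0.334 for Col4a3 and from 0.529 to 0.379 for Col12a1. Among the 22 called in heart, Col5a3 (r = -0.501, rho = -0.361, and -0.285 without 2 libraries) and Col22a1 (r = -0.408, rho = -0.365, and -0.432) ran against Col1a1. Col3a1 had r = 0.929 and rho = 0.883 (0.903) and Col1a2 r = 0.919 and rho = 0.875 (0.870), whereas Col4a1 had r = -0.0428 and rho = -0.167 (permutation p = 0.8) and Col8a1 r = -0.0846. Col4a4 had r = 0.704 and rho = 0.591 in heart (0.545 without 2 libraries). Libraries of a tissue share strain groups and depth, and whether the tissues differ in these correlations was not tested.

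**Figure D5:**
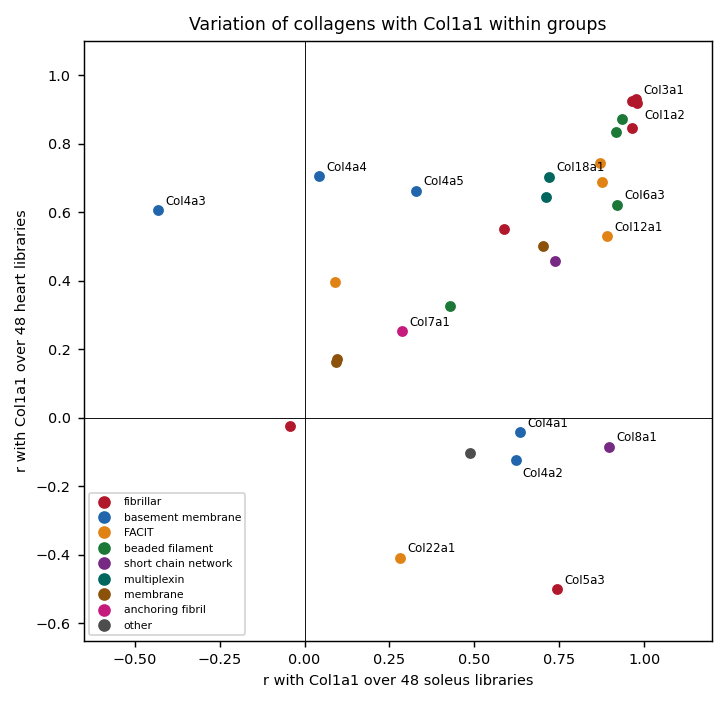
Correlation r of each collagen with Col1a1, as deviations from group means over 48 soleus libraries (horizontal axis) and 48 heart libraries (vertical axis), coloured by class. Col3a1 and its closest fibrillar chains sit at the top right (0.975 in soleus, 0.929 in heart), while Col4a1 and Col8a1 have r of 0.635 and 0.895 in soleus and near 0 in heart.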

How the data were processed

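RNA of mouse soleus and heart was sequenced from oligo(dT)-selected libraries (NEBNext Ultra II, paired reads of 150 bases, per the labels' protocols). The submitters' processing notes name STAR 2.5.2b, RSEM 1.2.28 and mm10, without their settings. The authors deposited expected counts and FPKM per gene, 1 table of each per tissue. Of the 120 samples in the labels, 96 matched a column by name, and 24 further columns of the count tables, which carry no sample title, were left aside.

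Expected counts were rounded to whole numbers, filtered by group (filterByExpr), scaled by TMM and tested with edgeR 4.0.16 (quasi-likelihood F test, R 4.3.3), with p-values adjusted over all genes of a fit (Benjamini-Hochberg) and calls at an adjusted p under 0.05. One fit per tissue held its 48 libraries, and a further fit held both tissues. Log2 differences are given ± SE, derived from the F statistic. CPM values are scaled by TMM, and log2 CPM has a prior count of 2. FPKM served for levels between genes and was not tested. DESeq2 1.42.0 and limma 3.58.1 gave alternatives. Rounding and RSEM's split of shared reads can move low genes. The tests were tested on simulated data.

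The gene classes, pathway lists, markers and comparisons were chosen with earlier results of these data known. Values are given for the most abundant members of each class and, per comparison, for called members with the smallest p and those called against their class, and other genes were named after their values were seen. Mice with codes in both tissues (19) pair soleus and heart libraries, with a median correlation of deviations of 0.114 (-0.371 to 0.446), and the fit with the mouse as a block is an alternative. No pair of libraries in a group held identical values. The median library totals differ between tissues, so low genes are less precise in soleus.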

Additional observations from a re-analysis of the deposited data

Results flagged for a closer look

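Libraries that stood apart from the other 5 of their group were sought in each group of 6 on the log2 scale (Dixon's test). Only the most abundant tested genes of each class in a tissue entered. Of 264 groups of 6 tested, 12 held a flagged library, 9 high and 3 low, and 2 of the 12 belong to mouse B80. Chance flags about 1 in 20 groups, so the number flagged is near what chance gives. The B80 heart (ND5, non-exercised) held Col6a1 at 115.2 CPM, next to 57.21 CPM in the nearest library, and Col6a2 at 121.6 CPM, next to 59.27 CPM. The exercised CO1 heart E50 was high in 4 genes, with Col14a1 at 26.25 CPM (nearest 11.04), Col18a1 at 57.57 CPM (nearest 8.05), Col1a2 at 110.8 CPM (nearest 71.62) and Col23a1 at 5.477 CPM (nearest 2.166). The exercised CO1 heart E56 held Col4a1 at 269.7 CPM (nearest 222.8), and the non-exercised CO1 heart E42 held Col23a1 at 2.6 CPM (nearest 1.618). The non-exercised ANT1 heart A70 was low in Col7a1 at 0.7586 CPM (nearest 1.361), and the exercised ND6 heart I4 in Col28a1 at 0.8756 CPM (nearest 1.307). Among exercised ND5 soleus libraries, B69 was low in Col14a1 at 3.324 CPM (nearest 14.27) and B9 high in Col23a1 at 8.985 CPM (nearest 4.139).

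The ANT1 difference in non-exercised mice itself differed between soleus and heart in 12 collagens, by the interaction term of the edgeR fit. On the log2 scale (soleus difference minus heart difference) it was -2.212 for Col1a1, -1.45 for Col1a2, -1.611 for Col3a1, -1.366 for Col5a1, -1.602 for Col5a2 and -1.013 for Col5a3 among fibrillar collagens. Among FACIT collagens it was -2.335 for Col12a1, -1.708 for Col14a1 and -1.76 for Col16a1. It was -1.689 for Col8a1, -1.838 for Col8a2 and -1.258 for Col7a1. The calls of Col12a1, Col14a1, Col5a3 and Col8a2 were lost with limma-voom, and those of Col14a1, Col3a1, Col5a3 and Col8a2 with no filter.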

How the results depend on the processing

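Under other scalings, filters, DESeq2, a table without mtDNA genes, single libraries left out and covariates, 2626 of 2966 values of single genes kept their call and direction, 338 were no longer called and 2 reversed. Reversed were Col11a1 in ANT1 soleus with the tendon covariate (0.472) and Col23a1 in the ND5 to ND6 comparison with the regenerating muscle covariate (-0.022). The comparisons of ANT1 with single strains, those without B80 and the regenerating muscle covariate were chosen after the data were seen. The share of all genes called is not set beside the counts that follow, so these cannot be read as particular to collagens. In non-exercised soleus, the 29 collagens called for ANT1 became 11 with the tendon covariate, 19 with the regenerating muscle covariate, 8 against ND6 alone and 18 against CO1 alone. In exercised soleus the 25 became 14 with the regenerating muscle covariate, and the 20 of ND5 against ND6 became 0. For ND5 against CO1 in soleus, 1 was called with no filter and 3 by DESeq2, and for training in ND5 soleus 1 by DESeq2. In heart, 11 were called for ANT1 against ND5 alone in non-exercised mice. In exercised hearts 2 were called with the atrium covariate and 0 against ND5 alone, where 1 was called for ANT1. The 19 of ND5 against CO1 hearts became 1 with the atrium covariate, 10 in a fit of non-exercised mice alone and 0 without B80. Fewer libraries entered the last pair of fits, and the cause was not tested for the others.

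Leaving out 1 library at a time gave 24 to 30 calls for ANT1 in non-exercised soleus, 21 to 26 in exercised soleus, 15 to 21 for ND5 against ND6, 0 to 18 for ND5 against CO1 and 0 to 3 for training in ND5. In heart it gave 0 to 1 for ANT1 in exercised mice and 0 to 21 for ND5 against CO1, where 0 came only without B80, and 0 throughout for the other heart and soleus comparisons. Soleus and heart libraries shared 19 mouse codes. With the mouse as a replicate block (limma-voom), 31 collagens were called between the tissues and 8 for the interaction, the same counts as without the block, against 32 and 12 by edgeR. With no filter the interaction had 8. Low genes such as Col4a3, Col4a4 and Col8a2 rest on a few CPM, which limits their precision.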
